A study of Homo sapiens with 4 samples.

Results

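The fatty acid binding proteins were examined as one family. The list held 7 genes, FABP1 to FABP7, and a probe belonged to it when its gene symbol in the platform's annotation was one of those names. This gave 6 probes of 26423 on the array (20377 of them named), 1 for each of FABP1, FABP2, FABP4, FABP5, FABP6 and FABP7. FABP3, the form of heart and skeletal muscle, was not analysed here. The family was proposed with results of these same arrays known, among them the differences of FABP1 and FABP4 between berberine and control cells. Those differences, and those of the other members, are therefore given as a description, with standard errors and no p-value.

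The study asked how berberine, a plant alkaloid, acts on the viability of HepG2 cells, an established human hepatocellular carcinoma line. In all, 4 one-colour arrays held Cy5-labelled amplified RNA, of 2 control samples left without berberine and of 2 that received it at 26.95 µM over 24 hours. All samples were grown in DMEM with serum, and no genotype or allele distinguishes them. A free-text field on all 4 samples names a different experiment, 48 hours after MDI-induced differentiation, a mixture used to turn fibroblast-like cells into fat cells, with 13.47 µM berberine for the treated pair. That conflict could not be settled from the labels. It concerns the tissues of this family, since FABP1 is the classical liver form and FABP4 the classical adipocyte form. Nothing in the labels says that the replicates were separate cultures.

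Fatty acid binding proteins are small cytosolic carriers that fold into a barrel around a long-chain fatty acid or a related ligand. They move fatty acids from the plasma membrane to mitochondria, to the endoplasmic reticulum and to the nucleus, where some of them hand ligands to the PPAR nuclear receptors. Each form is known by the tissue where it is abundant. FABP1 is very abundant in hepatocytes and is also made in the gut, and its gene is a textbook target of PPARA and of the liver factors FOXA and C/EBP.

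The 250 bases before the annotated transcription start of the human FABP1 and FABP2 genes are shown because FABP1 had the largest difference of the family and FABP2, the intestinal form, had little. They are from RefSeq on GRCh38.p14, and both genes lie on the minus strand. FABP1 spans chr2:88122982-88128062 and FABP2 chr4:119317250-119322138. The FABP1 stretch is chr2:88128063-88128312 and the FABP2 stretch is chr4:119322139-119322388. Capitals mark the matches to 4 short motifs, searched on both strands, and the last base printed is the one before the start.
FABP1: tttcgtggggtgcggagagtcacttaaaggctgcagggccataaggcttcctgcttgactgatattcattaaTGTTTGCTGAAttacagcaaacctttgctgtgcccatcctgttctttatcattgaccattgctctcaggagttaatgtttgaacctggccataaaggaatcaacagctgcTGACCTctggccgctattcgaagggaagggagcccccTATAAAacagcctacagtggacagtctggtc
FABP2: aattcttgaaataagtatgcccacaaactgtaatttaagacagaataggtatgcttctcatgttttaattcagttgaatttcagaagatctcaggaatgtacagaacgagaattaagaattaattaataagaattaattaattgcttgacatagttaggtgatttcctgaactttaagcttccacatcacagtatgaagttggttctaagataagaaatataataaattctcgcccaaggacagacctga
The FABP1 stretch held 4 matches, 1 of each motif. The C/EBP motif (TTGCNNAA) began 175 bases before the start, where it overlapped the forkhead motif of the FOXA factors (TGTTTNC), which began 178 bases before it. The nuclear receptor core (AGGTCA, found as its reverse complement) began 68 bases before the start, and the TATA box (TATAAA) 31 bases before it. In the FABP2 stretch 0 matches were found. The same stretch of FABP7, a member with little difference, held the forkhead motif, 74 bases before its start, and that of FABP6 held the TATA box on the opposite strand, 30 bases before its start. Over the same 250 bases of 35116 promoters, the C/EBP motif occurred in 9.05%, the forkhead motif in 15.5%, the nuclear receptor core in 12.1% and the TATA box in 10.7%. The stretches of FABP4 and FABP5 were not scanned, so the matches cannot be set beside the difference of FABP4. A match to a few letters is a description of the sequence and shows no binding.

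The values carry limits that apply to each member. The 6 member probes have identifiers of a mouse array (PH_mM), so each value below is the signal of a mouse probe under that gene's name. No detection call was used, and 528 genes named as mouse olfactory receptors were taken as a background reference. On the scale used below, log2(normalized intensity + 1), the median of these genes was 6.05 and the level that 95% of them stayed under was 9.24. The latter is called the background line. Median intensity as deposited was 62 to 90 per sample. Control 2 stood apart at the low end, with 269 probes below 0 against 0 to 11 in the other samples.

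FABP1, the liver form, was lower with berberine. The FABP1 probe read an intensity of 1783 in control 1 and 1364 in control 2, and, after treatment, 241 in berberine 1 and 300 in berberine 2 as deposited. After normalization the log2 levels were 10.57 and 10.39 in the controls and 8.14 and 8.20 with berberine. Both controls were therefore brighter than both treated samples, and the groups lay 2.19 apart at their closest. The controls differed from each other by 0.18 and the treated samples by 0.07. The group means were 10.48 ± 0.13 and 8.17 ± 0.05 (SD, n = 2 in each group), a log2 difference of -2.32 with an SE of 0.12 in limma's fit over all 17778 genes.

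The FABP1 difference kept its direction and most of its size in every setting run. It was -2.53 with the values as deposited, -2.64 with median centring and -2.14 with a pseudocount of 50. Leaving out any 1 sample gave -2.38 to -2.22. The mean over the 4 samples, 9.33, was just above the background line, which 9.15% of all genes exceeded. The control mean lay above it and the berberine mean under it, so the treated cells read FABP1 inside the background range and no fold is given. With control 1 or control 2 left out, the mean lay under the line recomputed from the remaining samples. Fewer cells making FABP1 and less FABP1 RNA per cell cannot be told apart in bulk RNA.

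FABP4, the adipocyte form, which is also made by macrophages, was higher with berberine at a low signal. As deposited, its probe read 79 in control 1, 43 in control 2, 126 in berberine 1 and 131 in berberine 2. The log2 levels were 6.11 and 5.92 in the controls and 7.10 and 6.94 with berberine. The groups did not overlap, and their closest values lay 0.82 apart, where the controls differed by 0.19 and the treated samples by 0.17. The means were 6.02 ± 0.14 and 7.02 ± 0.12 (SD, n = 2 in each group), a log2 difference of 1.00 with an SE of 0.14. All 4 values were below the background line, and the control mean was close to the olfactory receptor median, so no fold is given.

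The size of the FABP4 difference depended on what was added before the logarithm. With a pseudocount of 50 it was 0.65. It was 1.13 with the values as deposited and 1.01 with median centring. Without control 2, the dimmer control, it was 0.86, and 0.69 when the deposited values were used without that sample.

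FABP2, the form of enterocytes, showed little difference. Its probe read 441 and 364 in the controls and 335 and 426 with berberine, so the groups overlapped as deposited. After normalization the levels were 8.58 and 8.54 in the controls and 8.61 and 8.73 with berberine. The groups were then apart by 0.03, less than the 0.12 between the treated samples. The log2 difference was 0.11 with an SE of 0.11, and its sign was negative under other scalings, at -0.085 as deposited and -0.20 after centring on the median.

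FABP5, the epidermal form, which is also widely made outside skin, read 52 and 23 in the controls and 40 and 46 with berberine. Its log2 levels were 5.51 and 5.38 against 5.29 and 5.43, and the groups overlapped. The difference was -0.08 with an SE of 0.12, and 0.30 as deposited and 0.19 with median centring. All 4 levels lay below the olfactory receptor median.

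FABP6, the bile acid carrier of the ileum, had a dim probe, inside the background range. It read 30 in control 1 and 1 in control 2, against 29 and 17 with berberine. The log2 levels were 4.51 and 3.91 in the controls and 4.67 and 4.07 with berberine. Replicate 1 was the higher sample in each group, by 0.60 in the controls and 0.61 with berberine, and the groups overlapped. The difference was 0.16 with an SE of 0.32.

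FABP7, the form of radial glia and the developing brain, read 32 and 4 in the controls and 30 and 26 with berberine. Its log2 levels were 4.70 and 4.51 against 4.89 and 4.54, and the groups overlapped. The difference was 0.11 with an SE of 0.18. As with FABP6, control 2 was the sample that read near 0 before normalization.

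For these dim members the scaling set the size of the difference. With the values as deposited, FABP6 was at 1.56 (SE 1.01) and FABP7 at 1.17 (SE 0.74), and with median centring at 1.45 and 1.06. Without control 2 the deposited values gave -0.42 for FABP6 and -0.19 for FABP7, so the large positive values rested on that 1 sample. With a pseudocount of 50 they were 0.05 and 0.04.

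**Figure D1:**
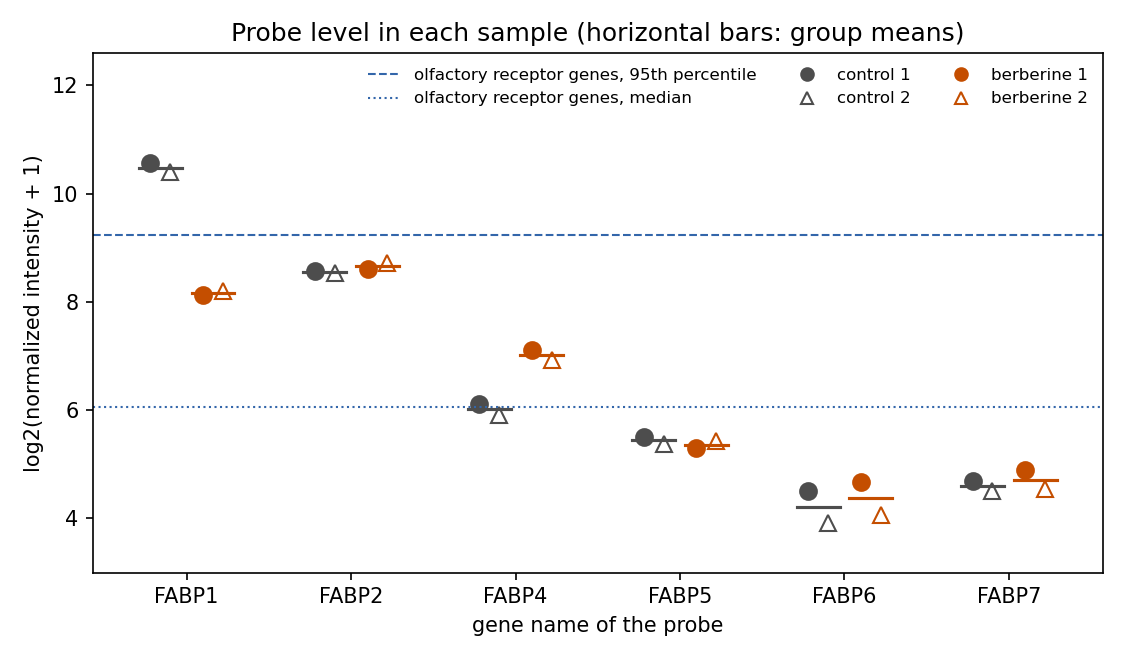
Level of each family probe, as log2(normalized intensity + 1), in the 2 control samples (grey) and the 2 berberine samples (orange), with group means as horizontal bars. The dashed line is the background line (9.24, the 95th percentile of olfactory receptor genes) and the dotted line is the median of those genes (6.05). The FABP1 controls are the only values above the dashed line.

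Read together, 3 of the 6 measured members had groups that did not overlap after normalization, FABP1 lower and FABP2 and FABP4 higher. Groups did not overlap for 45.0% of all genes, 23.3% lower and 21.7% higher with berberine, so the family's count is near that background. The log2 difference was at or beyond -1 in FABP1, as in 1.19% of all genes, and at or beyond 1 in FABP4, as in 1.19%, while the other 4 members differed by 0.16 or less on the log2 scale. The median difference over the 6 members was 0.11, against -0.01 over all genes. Through the dim members it was 0.71 as deposited and 0.60 after centring on the median. Since the family was chosen on this contrast, nothing more is read from these shares.

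**Figure D2:**
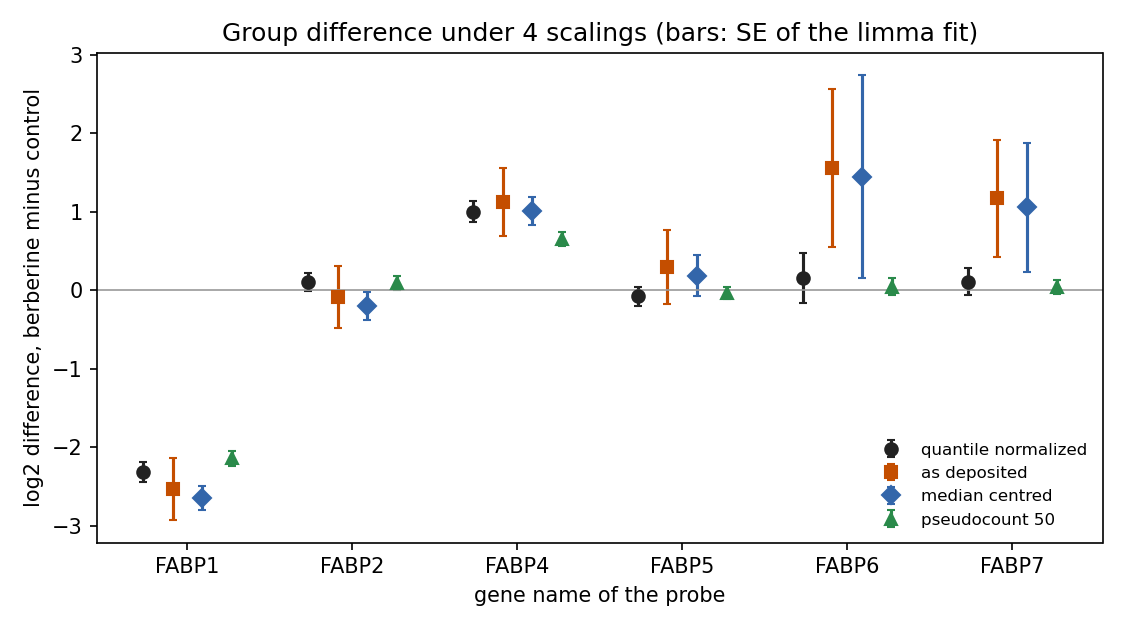
Log2 difference of each family probe, berberine minus control, under 4 scalings, with the SE of the limma fit as bars. FABP1 is negative (-2.64 to -2.14) and FABP4 positive (0.65 to 1.13) under each, FABP2 and FABP5 change sign, and FABP6 and FABP7 are large only without quantile normalization, with wide bars.

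The wider family of intracellular lipid binding proteins includes the retinoid carriers and the myelin and testis forms. Of its 9 other listed genes, 7 had a probe. Of these, 0 passed the test across all genes (limma adjusted p under 0.05, met by 0.0506% of all genes). When the variance was allowed to follow signal, 0 passed as well. An unadjusted p under 0.05 in limma was met by 1 of the 7 and by 2318 of all 17778 genes. Groups did not overlap for 4 of the 7, all lower, where 45.0% of all genes did not overlap and 23.3% were lower, and the median difference was -0.16. PMP2, the carrier of peripheral myelin, had the smallest p, at -0.72 (SE 0.19, limma adjusted p = 0.307). Its log2 levels were 5.16 and 5.17 in the controls and 4.67 and 4.21 with berberine, all below the olfactory receptor median.

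The retinoid carriers overlapped between groups or differed by little. CRABP1, a retinoic acid carrier, read 12.05 and 12.02 in the controls and 11.94 and 11.92 with berberine, a difference of -0.11 with an SE of 0.11. CRABP2, which delivers retinoic acid to its receptor, read 8.14 and 9.65 in the controls and 9.46 and 9.56 with berberine. Control 1 was the low sample there, and the difference of 0.62 had an SE of 0.54. RBP2, the retinol carrier of enterocytes, was at -0.28 and RBP7 at -0.14. FABP12 was at -0.16 and FABP9, the testis form, at -0.22, though FABP9 was at 0.13 as deposited.

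Genes that work beside the fatty acid binding proteins were described from gene lists. Together with markers of cell types these lists held 180 measured genes, of which 0 passed the limma test. An unadjusted p under 0.05 in limma was met by 2318 of all 17778 genes and by 31 of the 180. When limma let the variance follow signal, called the trend test below, 8 passed (5 higher, 3 lower), or 4.44%, where 1.46% of all genes did (0.962% higher, 0.501% lower). With a pseudocount of 50 in place of 1, 8 passed as well, also 5 higher and 3 lower. The lists were chosen with earlier results of these data known, so these counts and shares are a description and show no enrichment. Of the 8 that passed the trend test, ACSL4, NCOA1, CEBPA and CEBPB had means above the background line, and PPARD, FOXA1, ABCC2 and FGG below it. The 8 genes kept their direction under each scaling. The medians of the lists for lipid droplets and for hepatocyte, enterocyte, muscle, macrophage, fibroblast and lymphocyte markers did not keep their sign under every scaling, and those of the other lists did.

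Fatty acid uptake and activation had 17 measured genes, of which 0 passed the limma test and 1 the trend test, with a median difference of 0.01. ACSL4, which activates arachidonic and other polyunsaturated fatty acids, read 10.23 and 10.21 in the controls and 11.39 and 11.31 with berberine. Both treated samples were higher, by 1.13 on average with an SE of 0.11 (limma trend adjusted p = 0.00958, without the trend 0.106). SLC27A5, a liver enzyme that activates bile acids and very long-chain fatty acids, was at -0.28 (limma adjusted p = 0.407). CD36, a membrane receptor for fatty acids, read 9.83 and 11.30 in the controls and 9.51 and 10.70 with berberine. In CD36 the replicates differed more than the groups, with replicate 2 the higher in each.

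Lipid droplet and lipolysis genes (16 measured, median -0.09) had 0 members past either test. PLIN5, a droplet coat protein, was at 0.46 (SE 0.12, limma adjusted p = 0.287). LIPE, the hormone-sensitive lipase that FABP4 is known to bind in fat cells, was at -0.39 (SE 0.11, limma adjusted p = 0.323). LIPE read 7.97 and 7.93 in the controls and 7.61 and 7.51 with berberine.

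Among the PPAR receptors and their partners (14 measured, median -0.10), 0 passed the limma test and 2 rose in the trend test. PPARD, the receptor that FABP5 is known to supply with ligand, read 7.97 and 7.76 in the controls and 9.03 and 8.92 with berberine, a difference of 1.11 with an SE of 0.14 (limma trend adjusted p = 0.0286, without the trend 0.123). NCOA1, a coactivator of nuclear receptors, was at 0.79 (SE 0.12, limma trend adjusted p = 0.0417, without the trend 0.170). PPARA, the receptor that FABP1 is known to supply, was at -0.07 with an SE of 0.12. A second, dim PPARA probe with a mean of 5.48 was at 1.12, so the probes disagree. PPARG, the fat cell receptor tied to FABP4, read 4.51 and 5.04 in the controls and 4.89 and 4.54 with berberine, below the olfactory receptor median, with groups that overlapped.

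PPAR target genes of fatty acid oxidation other than FABP1 (15 measured, median -0.06) had 0 members past either test. An unadjusted p under 0.05 in limma was met by 2318 of all 17778 genes and by 1 of these 15. That gene was SLC25A20, the carnitine carrier of mitochondria, at -0.73 (SE 0.15, limma adjusted p = 0.238). Its second probe was at 0.39. EHHADH, a peroxisomal oxidation enzyme, was at -0.63 with an SE of 0.26, and at -0.05 with values as deposited.

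The liver factors known to act on the FABP1 gene had 8 measured members, with 0 past the limma test and 3 past the trend test, 2 lower and 1 higher. CEBPA and CEBPB, whose family binds the C/EBP motif printed above, differed in opposite directions. CEBPA read 11.99 and 11.85 in the controls and 10.08 and 9.99 with berberine, a difference of -1.89 with an SE of 0.12 (limma trend adjusted p = 0.00489). CEBPB read 12.07 and 12.00 in the controls and 13.55 and 13.68 with berberine, a difference of 1.58 with an SE of 0.12 (limma trend adjusted p = 0.00547). Without the trend the limma adjusted p-values were 0.0688 and 0.0771. FOXA1, a forkhead factor named here after its value was seen, was at -0.89 (SE 0.14, limma trend adjusted p = 0.0481, without the trend 0.170). The other FOXA members, also named after their values were seen, differed in direction. FOXA2 was at -0.33 (SE 0.11, limma adjusted p = 0.356) and FOXA3 at 0.38 (SE 0.10, limma adjusted p = 0.315), with groups apart in both. HNF4A was at -0.14 with an SE of 0.13 and overlapping groups. All 6 kept these directions under each scaling, and the list's median was -0.23.

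Bile acid genes, the setting of FABP6, had 9 measured members with a median of 0.03 and 0 past the limma test. ABCC2, an exporter of conjugates in the bile canaliculus, rose in the trend test, by 1.34 (SE 0.11, limma trend adjusted p = 0.00958, without the trend 0.0928). OSTA, part of the basolateral bile acid exporter, was at 0.46, with all 4 levels between 3.91 and 4.54.

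**Figure D3:**
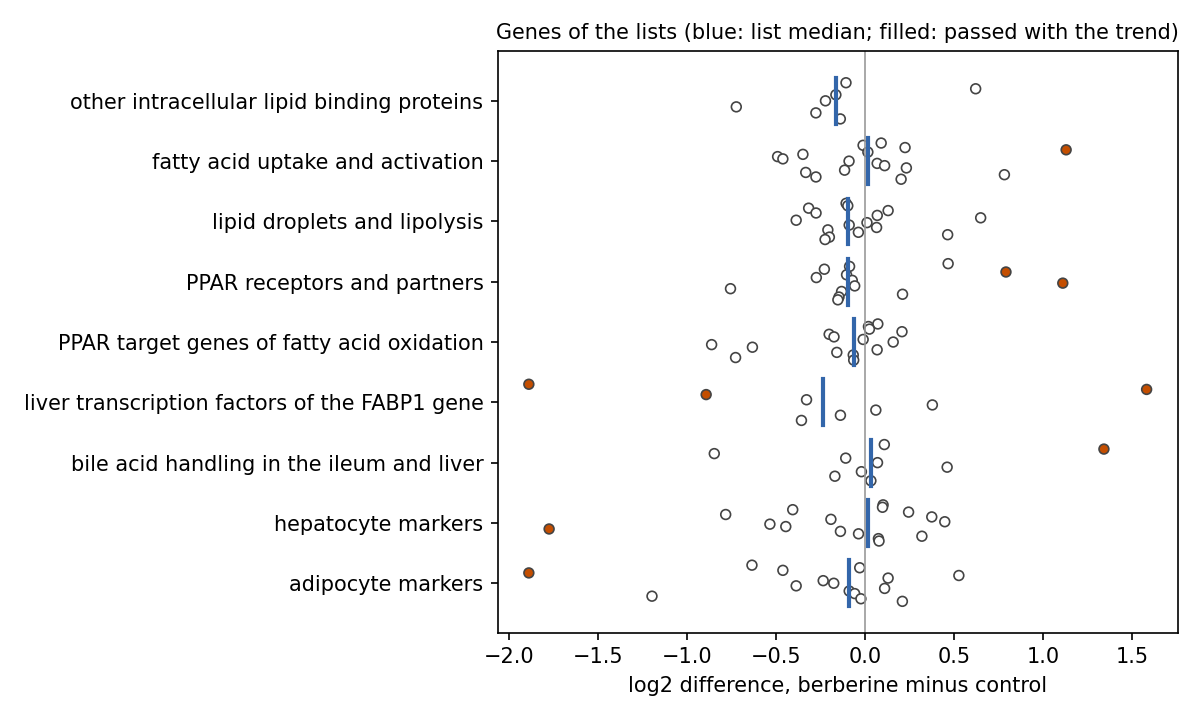
Log2 difference, berberine minus control, of each measured gene in 7 lists of related genes and in the hepatocyte and adipocyte marker lists, with the list median as a blue bar. Filled points passed limma with an intensity trend; list medians lie between -0.23 and 0.03, and the widest differences are those of CEBPA and CEBPB among the liver factors and of FGG among hepatocyte markers.

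The labelled cell type was checked by its markers, also read by mouse probes, since both FABP1 and FABP4 are themselves cell type markers. Of 16 measured hepatocyte markers, 0 had a mean above the background line. ALB, albumin, read 8.65 and 8.46 in the controls and 8.10 and 8.20 with berberine. AFP, the fetal plasma protein, read 4.51 to 4.93 over the 4 samples, all below the olfactory receptor median. HPX, APOA2 and FGA, all plasma proteins, had the highest means, 8.62, 8.56 and 8.36, and the 4 FGA probes disagreed, from -0.90 to 0.39. FGG, a fibrinogen chain, had the smallest p of the list, at -1.77 (SE 0.12, limma trend adjusted p = 0.0163, without the trend 0.0688). The FGG mean over the 4 samples, 5.88, lay below the olfactory receptor median. The list's summed normalized intensity was 2541 to 2657 in the controls and 2018 to 2374 with berberine, lower in the samples where FABP1 was lower. APOA2, whose groups overlapped, read 7.30 in berberine 1 and 8.92 to 9.04 in the other samples. Without APOA2 the other 15 markers summed to 2036 to 2172 in the controls and 1850 to 1861 with berberine. Groups were apart for 2 markers higher with berberine and 3 lower, where 21.7% of all genes were apart higher and 23.3% lower. The 3 lower were ALB, FGA and FGG. The 2 higher, named after their values were seen, were APOA1 at 0.24 (-0.01 with median centring) and TAT at 0.32, and the other 11 markers overlapped. The list's median log2 difference was 0.02, and the list's part in the FABP1 result was not tested.

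Of 15 measured adipocyte markers, 0 rose in either test and CEBPA alone fell in the trend test. Of the 15, 3 had means above the background line, namely CEBPA and CD36, which hepatocytes also express, and SLC2A4, the insulin-regulated glucose transporter, at -0.02. ADIPOQ, the adipokine that defines fat cells, read 6.99 and 6.95 in the controls and 6.09 and 6.58 with berberine. The list's summed intensity was 7285 to 8479 in the controls and 3843 to 4759 with berberine. Most of that drop was CEBPA, and without CEBPA and CD36 the other 13 markers summed to 2269 to 2301 in the controls and 2037 to 2084 with berberine. Groups were apart for 2 markers higher with berberine and 6 lower, where 21.7% of all genes were apart higher and 23.3% lower. The 2 higher, in the direction of FABP4, were CFD, an adipokine, at 0.53 and CIDEC, a droplet protein, at 0.13. Both were named after their values were seen, as was RETN, at -1.20 among the 6 lower. All 4 CFD levels, 4.51 to 5.43, lay below the olfactory receptor median. The list's median was -0.09. Of 9 macrophage markers, the other source of FABP4, 0 were above the background line, and their summed intensity was 1130 to 1215 in the controls and 1268 to 1315 with berberine. That difference was CD14, named after its value was seen, since the other 8 summed to 763 to 808 and 763 to 800. The macrophage list's median was -0.01. Their part in the FABP4 result was not tested. None of the markers of these 3 lists was at 0 after normalization.

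Markers of the tissues of the other forms gave 0 genes past either test. Of 10 enterocyte markers (FABP2 and FABP6), 10 keratinocyte markers (FABP5), 9 glial and neural progenitor markers (FABP7) and 7 muscle markers (FABP3), 1 each had a mean above the background line. The medians of these lists were -0.14, 0.02, -0.04 and -0.10. Of 7 lymphocyte, 9 fibroblast and 10 endothelial markers, 0 passed either test.

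The genes whose profile over the 4 samples lay nearest to a member's were found by Euclidean distance, with each profile centred on its own mean, among genes brighter than the median gene. The 3 nearest to FABP1, of 8888 candidates, were MAGED1 (distance 0.36), CSN2 (0.38) and SNHG11 (0.42), with differences of -2.60, -2.10 and -2.54. FABP1 and these genes were high in both controls and low in both treated samples. The 3 nearest to FABP4, of 8889 candidates, were CPEB4 (distance 0.05), USP34 (0.07) and ABHD3 (0.07), with differences of 0.96, 1.06 and 1.02. In these genes, as in FABP4, control 2 was the lowest sample and berberine 1 the highest. With 4 samples many genes can lie this near, and the distance is a description. A second, dim USP34 probe was at -0.24.

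**Figure D4:**
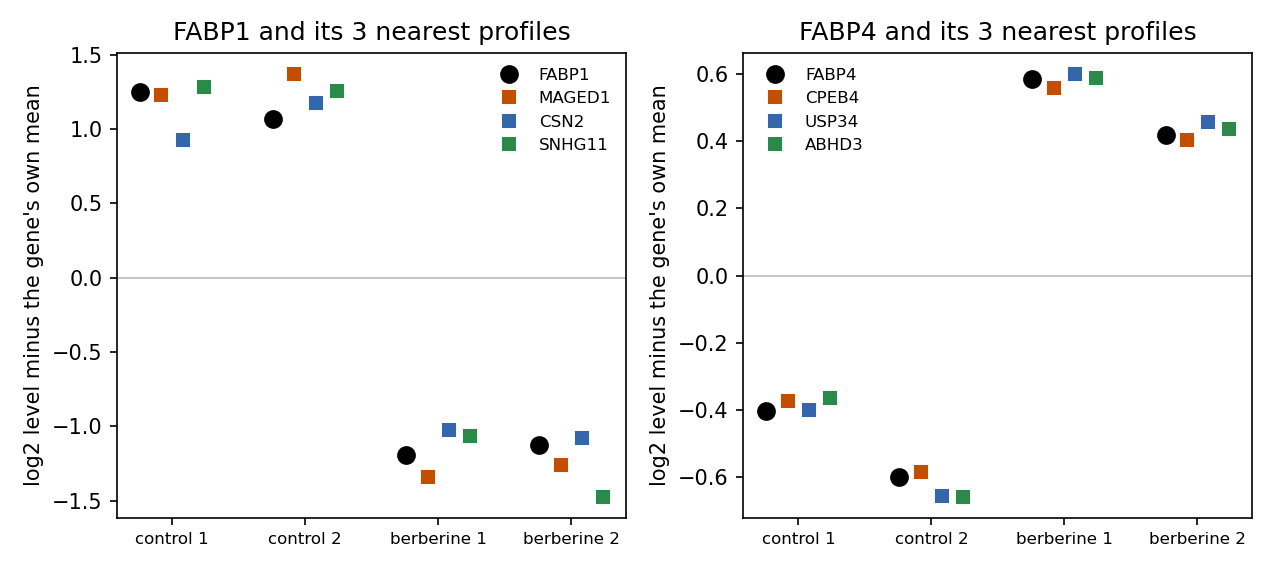
Log2 level minus the gene's own mean over the 4 samples, for FABP1 (left) and FABP4 (right) and the 3 genes with the smallest distance to each. FABP1, MAGED1, CSN2 and SNHG11 are above 0 in both controls and below 0 in both berberine samples, and FABP4, CPEB4, USP34 and ABHD3 are the reverse.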

How the data were processed

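Total RNA of 4 samples (2 control, 2 berberine) was measured on one-colour arrays. Linear intensity values were deposited per probe. How the authors scanned, corrected and scaled them was not stated in the labels. Because log2 medians spanned 0.53, above the 0.2 allowed, the arrays were quantile normalized, negative values were raised to 0, and 1 was added before taking log2. A gene was represented by its brightest probe, and each family member had 1. limma 3.58.1 in R 4.3.3 (lmFit and eBayes, no trend, no block, 2-sided) was fitted to 17778 genes, with Benjamini-Hochberg adjustment, a threshold of 0.05 and 2 residual degrees of freedom. The fit was tested on simulated data. An exact permutation test of 2 samples against 2 cannot go below 0.333. The p-values reflect only the variation among these 4 samples, possibly technical, and the number of arrays limits the precision.

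Members, gene lists and motif letters were chosen with earlier results of these data known. The named genes were all members, all other lipid binding proteins, the 2 smallest p-values of each related list, the 3 brightest hepatocyte and adipocyte markers and the 1 with the smallest p, a few fixed genes, and the 3 nearest profiles of FABP1 and FABP4. Alternatives were other scalings, a pseudocount of 50, a filter on the dimmest 30% of genes, an intensity trend, the replicate number as a block, the mean of a gene's probes and each sample left out. Promoters were read from RefSeq tables, where 12842 of the 17778 gene names equal a current human symbol. Figures were drawn with matplotlib 3.10.9.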

Additional observations from a re-analysis of the deposited data

How the results depend on the processing

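FABP1 stayed negative and FABP4 positive in every setting run, while FABP2, FABP5, FABP6 and FABP7 changed sign in at least 1 setting. With values as deposited the log2 differences were -2.53 for FABP1, -0.085 for FABP2, 0.30 for FABP5, 1.56 for FABP6 and 1.17 for FABP7. With median centring they were -2.64, -0.20, 0.19, 1.45 and 1.06. A pseudocount of 50 gave -2.14 for FABP1 and 0.65 for FABP4. With 1 sample left out, FABP1 ranged from -2.38 to -2.22, FABP2 from 0.04 to 0.16, FABP4 from 0.86 to 1.12, FABP5 from -0.17 to -0.01, FABP6 from -0.19 to 0.53 and FABP7 from -0.08 to 0.27. The deposited values without control 2, a setting chosen after seeing the data, gave -2.72 for FABP1, -0.22 for FABP2, 0.69 for FABP4, -0.27 for FABP5, -0.42 for FABP6 and -0.19 for FABP7, with 412 genes and 4 of the listed genes past the threshold.

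Members with groups apart numbered 3, 2 as deposited, 2 with median centring, and 3 to 6 with 1 sample left out, where 1 sample stands for a group (6 also for the deposited values without control 2). Members with a mean above the background line numbered 1, 0 without the dimmest 30% of genes and 0 to 1 with 1 sample left out; 2 lay above the median of all genes. Of all genes 9 passed limma, 2 as deposited, 0 with median centring (2247 at an unadjusted p under 0.05), 251 with a pseudocount of 50, 138 without the dimmest genes, 260 with the trend and 0 without any 1 sample (1380 to 2847 unadjusted). The listed genes gave 0, and 8 with a pseudocount of 50, 5 without the dimmest genes and 8 with the trend. With the replicate number as a block 0 genes passed limma (1878 unadjusted). Deviations from the group mean correlated at 0.0904 across genes for same-numbered samples and at -0.0904 for crossed numbers. With 2 samples per group the deviations mirror each other, so these correlations carry 1 independent value. It was small and positive for same-numbered samples, and whether those samples belong together was not tested. Of the causes, only the smaller number of genes or samples follows from how a setting is built, and the others were not tested.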
